A study of Mus musculus with 18 samples.

Results

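The comparison described here asks whether gene expression changed differently between 2 h and 4 h of antigen in wild-type (WT) and tristetraprolin-knockout (TTP-KO) mouse basophils. Its value for each gene is the log2 change from 2 h to 4 h in TTP-KO minus the same change in WT, which equals the genotype difference at 4 h minus that at 2 h. A positive value therefore means that a transcript rose more, or fell less, in TTP-KO. All genes with enough counts to be tested were taken, which were 14076 of the 56413 in the deposited table, and 12 of the study's 18 libraries entered the difference itself.

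Bone marrow of WT or TTP-KO mice was cultured in interleukin-3 (0.3 ng/mL) until day 7, loaded with anti-TNP IgE (TNP is a hapten) at 1 µg/mL on day 6, and sorted for CD49b-bearing cells by magnet. The 4 groups of 3 libraries compared were WT_TNP-OVA_2h, TTP-KO_TNP-OVA_2h, WT_TNP-OVA_4h and TTP-KO_TNP-OVA_4h, all given ovalbumin coupled to TNP (TNP-OVA) at 10 ng/mL. The control groups of both genotypes, given uncoupled ovalbumin (OVA) at 10 ng/mL for 2 h, served for reference levels. None of the study's 18 libraries was a control at 4 h. Strain, age and the TTP allele are not stated in the sources used here. Whether replicate libraries stem from different mice or cultures is not stated either, and p-values therefore reflect library-to-library spread alone, which can be technical.

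Basophils are rare granulocytes that carry IgE on its high-affinity receptor, and antigen that links this IgE sets off release of histamine and lipid mediators and transcription of cytokine and chemokine genes, above all that of interleukin-4. Many of the induced messenger RNAs are short-lived because their 3′ untranslated regions hold AU-rich elements. Tristetraprolin, encoded by Zfp36, binds such elements through its zinc fingers and recruits the enzymes that shorten the poly(A) tail, and it is itself induced by many stimuli.

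The 12 libraries held from 6844315 to 12733172 estimated counts, with the WT libraries at 4 h between 9911699 and 12733172 and those of TTP-KO at 4 h between 7555767 and 11395281. Mitochondrial genes took 1.724% to 2.008% of the counts. The most abundant gene took 9.936% to 10.97% of the counts in TTP-KO at 4 h and at most 9.822% in the other 3 groups, and the part this plays in any result was not tested. The basophil genes Mcpt8 and Prss34, which encode granule proteases, were abundant in all 4 groups, and the 15 basophil markers together made up 27379 to 36219 counts per 1e6 (CPM) of each library. Zfp36 RNA stood in WT at 446, 459.9 and 439 CPM at 2 h and 268, 307 and 309 CPM at 4 h. In TTP-KO it stood at 568, 553 and 572 CPM and at 349, 322 and 301 CPM. At 2 h it was higher in each library labelled TTP-KO than in WT, and at 4 h the genotypes overlapped. The targeted part of the gene is not stated in the sources used here, so its RNA level is no check of the labels, and TTP-KO stands throughout for libraries so labelled. Zfp36 fell in both genotypes, and the difference between the changes (-0.19 ± 0.07 on the log2 scale, standard error) did not pass the test (edgeR adjusted p = 0.393).

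Between 2 h and 4 h, transcripts moved in large numbers within each genotype, and few of these movements differed between genotypes. Expression changed for 4382 genes in WT (31.1% of those tested, 15.2% higher and 15.9% lower at 4 h) and for 4334 in TTP-KO (30.8%, 14.6% higher and 16.2% lower). A genotype difference was called for 2.79% of genes at 2 h (0.909% higher and 1.88% lower in TTP-KO) and for 5.22% at 4 h (1.83% higher, 3.4% lower). The change itself differed for 44 genes (0.313% of 14076, edgeR's quasi-likelihood test, p below 0.05 after Benjamini-Hochberg adjustment). The change was higher in TTP-KO for 13 of them (0.0924%) and lower for 31 (0.22%). Among the genes with a lower change were those of the cytokines Il13, Il6 and Osm, of the chemokines Ccl4, Ccl6 and Ccl9, and of the signalling regulators Socs1, Pim3 and Ier3. Among those with a higher change were Il4, the mannose receptor gene Mrc1, and the genes of fibronectin (Fn1) and of the clathrin machinery (Cltc, Picalm and Dab2).

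All but 2 of the differences were under 2-fold. They ran from 0.3075 to 1.021 on the log2 scale for the 13 genes with a higher change (median 0.553) and from 0.2047 to 1.209 in size for the 31 with a lower one (median -0.4719). At least 1.5-fold was reached by 5 and 11 genes, and 2-fold by Tufm in the one direction and Akr1c12 in the other. By sign, 18 of the 31 went down in both genotypes and further in TTP-KO, 9 had opposite signs in the genotypes and 4 went up in both but less in TTP-KO. Of the 13, 6 went up in both and more in TTP-KO, 4 had opposite signs and 3 went down in both but less in TTP-KO. The genotypes lay farther apart at 4 h than at 2 h for 27 of the 31 and for 9 of the 13. Induction by antigen was common among the 31: 19 of them stood at least 2-fold above the WT control at 2 h and 18 above the TTP-KO control, against 6.91% and 6.56% of all genes tested. For the 13 these counts were 2 and 3. The 2 h libraries enter both that fold and the difference, so the counts are a description only. The median over all 14076 genes was -0.00064, and 1285 genes had an unadjusted p under 0.05 (623 higher, 662 lower).

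**Figure D1:**
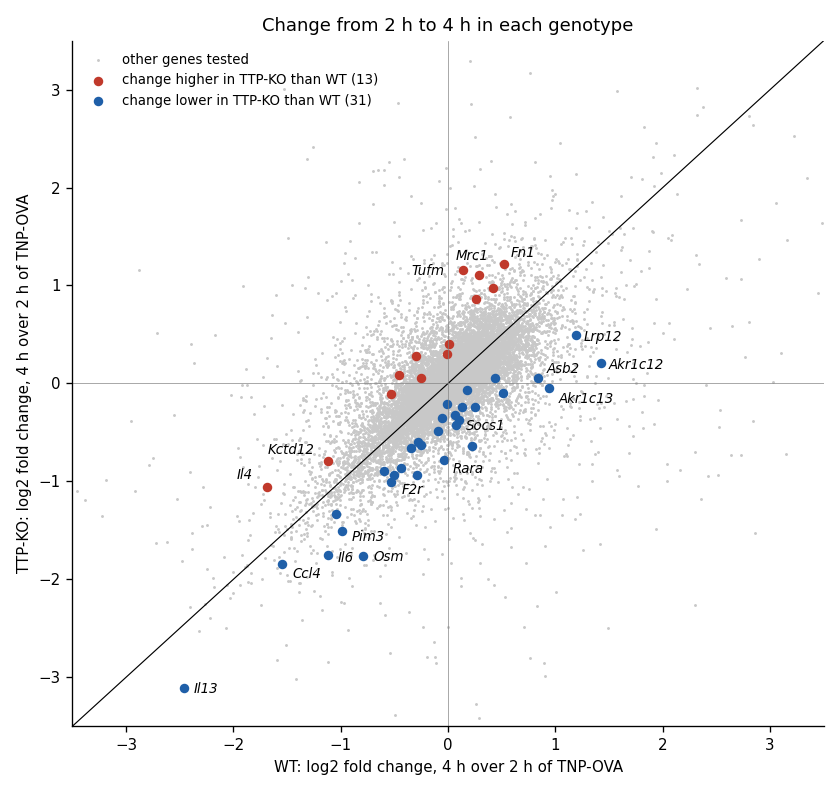
Log2 fold change from 2 h to 4 h of TNP-OVA in WT (horizontal axis) against that in TTP-KO (vertical axis) for the genes tested, with equal changes on the diagonal line and 82 genes beyond the axes not shown. The 13 red genes lie above the line and the 31 blue ones below it, with Il13 at the lower left and Il4 on the other side of the line.

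The 2 type 2 cytokines of basophils, Il4 and Il13, fell in both genotypes, but the difference between the changes had opposite signs. Il13 encodes interleukin-13, which drives mucus production and eosinophil recruitment. In WT its 3 libraries stood at 786, 854 and 834 CPM at 2 h and 139, 150.4 and 159.9 CPM at 4 h. In TTP-KO they stood at 1229.6, 1201 and 1184 CPM and then at 137, 147 and 135 CPM. The TTP-KO libraries all lay above the WT libraries at 2 h, and at 4 h the groups overlapped. The log2 change was -2.46 in WT and -3.11 in TTP-KO, a difference of -0.65 ± 0.08 (edgeR adjusted p = 4.88e-05, the smallest of all genes). The genotype difference was 0.55 ± 0.05 at 2 h (adjusted p = 8.58e-08) and -0.10 ± 0.05 by 4 h (adjusted p = 0.377).

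Il4 encodes interleukin-4, which switches B cells to IgE and T cells to the Th2 type. It stood in WT at 2244, 2803 and 2546 CPM at 2 h and at 749, 777 and 829 CPM at 4 h. In TTP-KO the values were 2664, 2605 and 2393 CPM and then 1301, 1187 and 1186 CPM. Here the groups overlapped at 2 h, and at 4 h all TTP-KO libraries lay above all WT libraries. Il4 fell by 1.69 in WT and by 1.06 in TTP-KO on the log2 scale, a difference of 0.63 ± 0.10 (edgeR adjusted p = 0.0123). The call held without each of the 12 libraries (difference 0.56 to 0.73) but not when only the 12 TNP-OVA libraries were fitted, without the controls.

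Il6, the gene of the acute-phase cytokine interleukin-6, followed Il13. Its libraries stood in WT at 5173, 5145 and 4974 CPM at 2 h and 2094, 2428 and 2512 CPM at 4 h. In TTP-KO they stood at 6886, 6851 and 6621 CPM and 2146, 2061 and 1845 CPM. All TTP-KO libraries were above WT at 2 h and the groups overlapped at 4 h, and the fall was larger in TTP-KO by -0.63 ± 0.09 (edgeR adjusted p = 0.00329). Osm encodes oncostatin M, which signals through the same receptor chain gp130 as interleukin-6. It fell from 940, 955 and 927 to 451, 518 and 664 CPM in WT and from 1041, 1094 and 991 to 332, 289 and 301 CPM in TTP-KO. The TTP-KO libraries all lay above WT at 2 h, where the genotype difference of 0.15 ± 0.11 did not pass the test (adjusted p = 0.597), and all lay below WT at 4 h. The difference of -0.97 ± 0.15 (adjusted p = 0.0164) lost its call when replicate 3 of WT at 2 h, replicate 2 of TTP-KO at 2 h, or replicate 2 or 3 of TTP-KO at 4 h was left out (-0.96 to -0.92), and when the controls were left out. For Il6st, which encodes gp130 itself, the change was the other way, a rise from 43.5 ± 4.70 to 58.5 ± 3.32 CPM in WT and from 39.6 ± 1.93 to 77.9 ± 5.56 CPM in TTP-KO (mean ± SD, n = 3). Its difference was 0.55 ± 0.12 (adjusted p = 0.027), with the call lost without any 1 of 8 libraries.

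Of 43 cytokine and growth factor genes listed 31 were abundant enough to be tested. Of these 1 had a higher change in TTP-KO (Il4) and 3 a lower one (Il13, Il6 and Osm), which is 12.9% called against 0.313% of all genes. The median difference of the 31 was -0.1673, against -0.00064 for all genes, and 24 of the 31 were negative. Csf2 and Il3 encode the basophil growth factors GM-CSF and interleukin-3 and were low in count. Csf2 stood at 7.26, 12.6 and 10.2 CPM in WT at 2 h and 6.71, 7.00 and 8.24 CPM at 4 h, and at 9.55, 12.4 and 11.8 CPM and 5.61, 6.10 and 4.72 CPM in TTP-KO. TTP-KO overlapped WT at 2 h and lay below it at 4 h, where the genotype difference did not pass the test (edgeR adjusted p = 0.3185). The difference between the changes was -0.58 ± 0.30 (adjusted p = 0.584). Il3 had one of 0.38 ± 0.38 (adjusted p = 0.827), with 11.9, 12.4 and 13.5 CPM in WT and 2.71, 4.48 and 4.05 CPM in TTP-KO at 2 h. At 4 h it stood at 16.9, 18.2 and 14.7 CPM in WT and 6.64, 7.92 and 4.83 CPM in TTP-KO, so that all TTP-KO libraries lay below WT at both times. Neither difference between the changes passed the test, with standard errors several times that of Il13. DESeq2 called 7 cytokine genes and the fit without a filter on low counts 8, in place of 4. Both fits called more genes in all than the main fit (totals are given below), which bears on each list count taken from them. The summed level of the 15 basophil markers also moved: it was 34895 to 36001 CPM in WT and 35784 to 36219 CPM in TTP-KO at 2 h, and 28353 to 30035 and 27379 to 28022 CPM at 4 h. None of these markers was at 0 in all libraries, and their part in the lower changes was not tested.

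**Figure D2:**
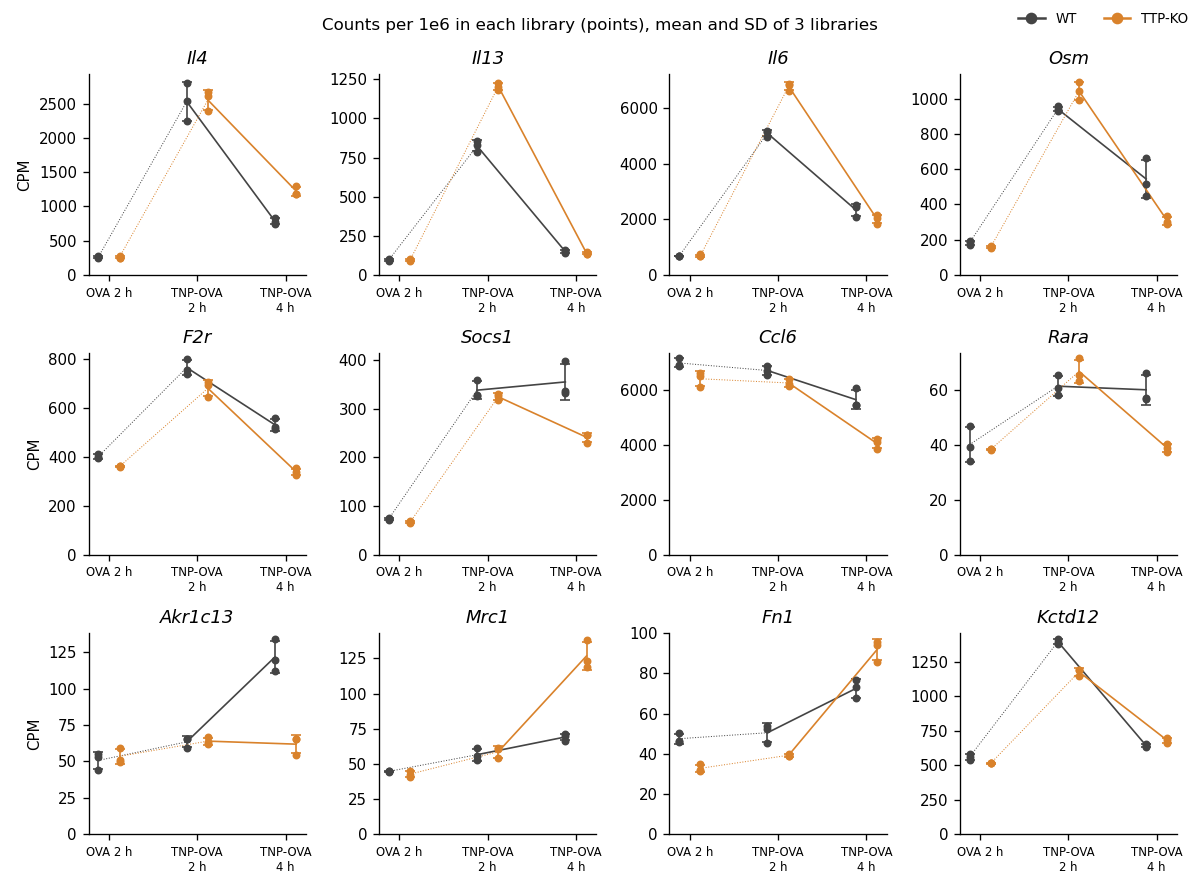
CPM of 12 genes in each library (points) for control OVA at 2 h and TNP-OVA at 2 h and 4 h, WT in grey and TTP-KO in orange, with the mean and SD of 3 libraries; solid lines join 2 h and 4 h of TNP-OVA, dotted lines the control. The lines of the genotypes converge for Il13 and Il6 and separate for Il4, Socs1, Rara, Akr1c13 and Mrc1.

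The AU-rich core that tristetraprolin is known to bind, the heptamer TATTTAT as DNA, can be read in the 3′ untranslated regions of several of these genes. They include genes with a higher and genes with a lower change in TTP-KO. The 25 bases around it are shown for 2 genes with a higher change in TTP-KO (Il4 and Mrc1) and 5 with a lower one, 5′ to 3′ on the messenger's strand, with T for U and each heptamer in capitals. They were read from the GENCODE M21 transcripts, with positions of build GRCm38; the deposited counts carry no coordinates.
Il4, chr11:53612497-53612521, minus strand: tatttttaaTATTTATaTATTTATa
Mrc1, chr2:14331678-14331702, plus strand: tgagaactgTATTTATccacatgta
Il13, chr11:53631743-53631767, minus strand: tcttgatctTATTTATtatggttgt
Il6, chr5:30019730-30019754, plus strand: tatgattgaTATTTATtatttttat
Osm, chr11:4240587-4240611, plus strand: aagacacttTATTTATccgaatgtc
Ier3, chr17:35822483-35822507, plus strand: tctaattaaTATTTATgTATTTATg
Pim3, chr15:88865223-88865247, plus strand: acggtctctTATTTATggtgtgatc
The 3′ untranslated region of Il4 is 104 bases long and holds 2 heptamers, both in the stretch shown, and that of Il13 is 741 bases long and holds 1. Il6 holds 1, Mrc1 and Pim3 2 each, Osm 3 and Ier3 4, so not all of them are shown. The stretch shown is the one with the most heptamers, or the first of equals. Searched on the messenger's strand alone, the heptamer was present in 28.3% of the 11526 tested genes with an annotated 3′ untranslated region. A single coding transcript was read per gene, the annotation's principal one and, among equals, that with the longest such region. Other forms of a gene were not searched, and the region read can be short (27 bases for Vegfa). It was present in 12 of 30 genes with a lower change (40.0%) and in 5 of 13 with a higher one (38.5%). Per kilobase of untranslated region there were 0.723 heptamers in the former, 0.278 in the latter and 0.292 over all tested genes. Of the 242 genes with such a region that fell at least 2-fold in WT, 45.0% held it, with 0.427 heptamers per kilobase. Over the 11526 genes, the median difference was 0.0009, -0.0031, -0.0104 and -0.0243 at 0, 1, 2 and 3 or more heptamers. The quartiles were -0.1425 and 0.1547 at 0 heptamers, and -0.1748 and 0.1259 at 3 or more. A match is a description of these letters and not a site of binding.

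Among messenger RNAs reported elsewhere as tristetraprolin targets, each call was of a lower change in TTP-KO. Of 40 listed 37 were tested, and 6 had a lower change (Il13, Il6, Ier3, Pim3, Cdkn1a and Ccl4; 16.2% of those tested, against 0.22% of all genes) and 0 a higher one. At an unadjusted p under 0.05 the counts were 17 lower and 3 higher, and 31 of the 37 differences were negative, with a median of -0.2497. The list's median change from 2 h to 4 h was -0.5546 in WT and -0.8255 in TTP-KO. Ptgs2, the inducible cyclooxygenase gene, stood at 1863, 1879 and 2045 CPM in WT and 2601, 2692 and 2589 CPM in TTP-KO at 2 h. By 4 h it stood at 406, 468 and 502 CPM and 480, 502 and 415 CPM. The groups were apart at 2 h and overlapped at 4 h, but the difference of -0.42 ± 0.11 did not pass (adjusted p = 0.186). Vegfa, an angiogenic factor, had a positive difference of 0.57 ± 0.21 that did not pass either (adjusted p = 0.371). DESeq2 called 12 members (11 lower) and the unfiltered fit 13 (all lower), and both fits called more genes in all than the main fit.

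In TTP-KO 3 chemokine genes had a lower change. Ccl6 and Ccl9, ligands of the receptor CCR1, are among the abundant messengers of these cells. Ccl6 stood in WT at 6697, 6572 and 6902 CPM at 2 h and 5456, 5460.2 and 6067 CPM at 4 h. In TTP-KO it stood at 6409, 6149.5 and 6248 CPM and 4214, 3864 and 4107 CPM. The TTP-KO libraries were the lower ones at both times, with the wider gap at 4 h. At 2 h the genotype difference of -0.10 ± 0.04 did not pass the test (edgeR adjusted p = 0.207). The difference between the changes was -0.38 ± 0.06 (adjusted p = 0.00115). Ccl9 rose in WT, from 4435 ± 121 to 5004 ± 215 CPM (mean ± SD, n = 3), and stood in TTP-KO at 3832 ± 70.5 and 3648 ± 21.8 CPM. Its difference was -0.25 ± 0.05 (adjusted p = 0.00992), lost without replicate 2 of WT at 2 h or replicates 2 or 3 of TTP-KO at 2 h (-0.22 in each case). Ccl4, which attracts monocytes and lymphocytes, had 25971, 27422 and 25148 CPM in WT and 25866, 28227 and 27416 CPM in TTP-KO at 2 h. At 4 h it had 8667, 9003 and 9284 CPM in WT and 7674, 7822 and 7139 CPM in TTP-KO. The groups overlapped at 2 h and were apart at 4 h, a difference of -0.31 ± 0.06 (adjusted p = 0.0133) that lost its call without any 1 of 6 libraries and with limma-voom. Over the 22 of 27 listed chemokine genes that were tested, 3 had a lower and 0 a higher change (13.6% called, against 0.313% of all genes), with a median of -0.2138 and 19 negative values. At an unadjusted p under 0.05 there were 9 lower and 1 higher, against 662 and 623 of all 14076 genes. Without a filter, in a fit that called more genes in all, 6 were called, all lower.

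Of 30 SOCS, Pim and cytokine feedback genes tested 2, Socs1 and Pim3, had a lower change (6.67% called, against 0.313% of all genes). Socs1, which encodes an inhibitor of JAK kinases, stood in WT at 327, 359.9 and 327 CPM at 2 h and 332, 336 and 397 CPM at 4 h. In TTP-KO it stood at 317, 331 and 325 CPM and fell to 247, 230.3 and 247 CPM. The groups overlapped at 2 h, all TTP-KO libraries were below WT at 4 h, and the difference was -0.50 ± 0.08 (edgeR adjusted p = 0.00206). Pim3, a survival kinase gene, fell from 172, 166 and 188 to 83.03, 88.1 and 94.6 CPM in WT. In TTP-KO it fell from 185, 196 and 208 to 71.5, 66.96 and 67.97 CPM, so that TTP-KO was the lower genotype at 4 h alone. The Pim3 difference was -0.52 ± 0.09 (adjusted p = 0.00359). The median difference of the 30 genes was -0.0909, with 10 positive and 20 negative values. DESeq2 called 5 (4 lower) and the unfiltered fit 6 (5 lower), and both fits called more genes in all than the main fit.

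Ier3, an immediate early gene that modulates apoptosis, had a lower change. It alone was called of 37 immediate early transcription factor and response genes (2.7%, against 0.313% of all genes, list median -0.0382, 2 by DESeq2). Its libraries stood at 639, 703 and 666 CPM in WT and 662, 654 and 611 CPM in TTP-KO at 2 h. At 4 h they stood at 467, 487 and 526 CPM and 357, 358 and 347 CPM. They overlapped at 2 h and were apart at 4 h, with a difference of -0.42 ± 0.07 (edgeR adjusted p = 0.00329). Cdkn1a, which encodes the cell cycle inhibitor p21, fell from 1154 ± 18.2 to 761 ± 16.9 CPM in WT and from 1172 ± 11.9 to 631 ± 23.1 CPM in TTP-KO (mean ± SD, n = 3). Its difference was -0.29 ± 0.05 (adjusted p = 0.00724). It was the only gene called among 47 cell cycle genes (2.13%) and among 33 apoptosis regulators (3.03%), whose medians were 0.0503 and -0.0234. DESeq2 called 4 and 2 genes in these lists. Rara, the retinoic acid receptor alpha gene, showed no called change in WT (60.9, 58.2 and 65.5 CPM at 2 h, 56.98, 57.2 and 66.4 CPM at 4 h). It fell in TTP-KO from 65.7, 71.7 and 63.5 to 40.5, 38.8 and 37.4 CPM, below all WT libraries. The difference was -0.75 ± 0.13 (adjusted p = 0.00359).

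Lower changes were called for F2r, P2ry1 and Adora2b, which belong to no list of receptors fixed here. F2r encodes the thrombin receptor PAR1. It fell from 754, 739 and 799 to 512, 521 and 557 CPM in WT and from 642, 703 and 693 to 336, 327 and 352 CPM in TTP-KO. The TTP-KO libraries lay below WT at both times and the gap widened, by -0.48 ± 0.06 (edgeR adjusted p = 1.07e-04). For P2ry1, an ADP receptor gene, no change was called in WT (335 ± 18.7 to 351 ± 15.2 CPM, mean ± SD, n = 3), and it fell in TTP-KO from 292 ± 10.9 to 233 ± 7.55 CPM. Its difference of -0.39 ± 0.07 (adjusted p = 0.00724) was lost without replicate 3 of TTP-KO at 2 h (-0.35) or replicate 2 of WT at 4 h (-0.34). Adora2b, the adenosine A2B receptor gene, fell in both, with a difference of -0.31 ± 0.07 (adjusted p = 0.0338) that was lost without any 1 of 10 libraries.

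Among 40 costimulatory and activation surface genes, 2 had a lower change, and 0 a higher one (5% called, against 0.313% of all genes). Cd47, the ligand that restrains phagocytes through SIRPα, had 502, 499.6 and 516 CPM in WT and 553, 553 and 561 CPM in TTP-KO at 2 h. At 4 h it had 493, 475 and 489 CPM in WT and 436, 423 and 449 CPM in TTP-KO. The TTP-KO libraries went from the higher ones at 2 h to the lower ones at 4 h, with no overlap at either time. The genotype difference passed the test at 4 h (-0.16 ± 0.04, edgeR adjusted p = 0.0116) but not at 2 h (0.14 ± 0.04, adjusted p = 0.053). The difference between the changes was -0.29 ± 0.05 (adjusted p = 0.00843), lost without replicate 3 of TTP-KO at 2 h (-0.27). Cd53, a leukocyte tetraspanin gene, had the smallest difference of the 44, -0.20 ± 0.04 (adjusted p = 0.0303), and lost its call without any 1 of 11 libraries, with only the TNP-OVA libraries and without the filter. Of 36 cytokine and chemokine receptor genes only Il6st was called (2.78%, with 2 called by DESeq2), with a list median of 0.0634.

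Lower changes in TTP-KO were shared by 3 neighbouring aldo-keto reductase genes. These enzymes reduce steroids, prostaglandins and reactive aldehydes, and Akr1c18 inactivates progesterone. Akr1c13 rose in WT from 65.7, 59.03 and 65.8 to 119.5, 112 and 134 CPM. In TTP-KO it stood at 61.8, 63.5 and 66.6 CPM and then at 65.7, 54.8 and 65.3 CPM. The groups overlapped at 2 h and all WT libraries lay above TTP-KO at 4 h, a difference of -0.98 ± 0.13 (edgeR adjusted p = 1.07e-04). Akr1c18 showed no called change in WT (355, 342 and 318 CPM at 2 h, 339, 379 and 370.1 CPM at 4 h) and fell in TTP-KO from 334, 326 and 345 to 268, 255 and 255 CPM. Its difference was -0.47 ± 0.08 (adjusted p = 0.00329). Akr1c12 rose in WT from 16.00, 14.5 and 13.3 to 34.7, 40.99 and 41.5 CPM against 13.4, 12.1 and 12.4 and 11.8, 15.7 and 16.7 CPM in TTP-KO, the largest difference of the 44 in size (-1.21 ± 0.26, adjusted p = 0.0451). That call was lost without any 1 of 11 libraries and with RLE scaling. Akr1c12 and Akr1c13 are near-identical copies between which reads can be split either way, so their separate values are uncertain.

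Mrc1 had the smallest p of the genes with a higher change. It encodes the mannose receptor CD206, an endocytic lectin of macrophages. In WT it stood at 52.8, 61.4 and 55.4 CPM at 2 h and 66.3, 70.2 and 70.9 CPM at 4 h. In TTP-KO it rose from 53.9, 61.6 and 60.4 to 119, 123 and 138 CPM. The genotypes overlapped at 2 h, and at 4 h the TTP-KO libraries all lay above WT. It rose by 0.29 ± 0.07 in WT and 1.11 ± 0.07 in TTP-KO on the log2 scale, a difference of 0.82 ± 0.10 (edgeR adjusted p = 1.06e-04). Mrc1 was the only gene called of 21 monocyte and macrophage markers tested (4.76%, against 0.313% of all genes). Their median difference was 0.0776, with 17 positive values. The summed level of those markers was 10603 to 11454 CPM in WT and 13461 to 13886 CPM in TTP-KO at 2 h. At 4 h it was 9692.7 to 10096 CPM in WT and 12121 to 12998 CPM in TTP-KO. It was thus higher in TTP-KO at both times, and none of the 22 markers listed was at 0 in all libraries. More cells of a type and more RNA per cell cannot be told apart in bulk samples, and the part of these cells in the results for Mrc1, Dab2 and Fn1 was not tested.

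Higher changes were also called for Dab2, Cltc and Picalm, for which no list was made. Dab2, a clathrin adaptor gene, rose from 43.6, 48.5 and 41.9 to 55.9, 57.2 and 47.5 CPM in WT and from 46.9, 45.3 and 49.01 to 85.5, 83.3 and 87.1 CPM in TTP-KO. The libraries overlapped at 2 h and were apart at 4 h, with a difference of 0.59 ± 0.11 (edgeR adjusted p = 0.0111). Cltc and Picalm encode the clathrin heavy chain and a clathrin assembly protein. Both fell in WT, Cltc from 312 ± 23.5 to 215 ± 19.2 CPM and Picalm from 482 ± 25.97 to 404 ± 15.2 CPM (mean ± SD, n = 3), with no called change in TTP-KO. The difference of 0.42 ± 0.09 for Cltc (adjusted p = 0.0199) was lost without any 1 of 7 libraries and without the controls. That of 0.31 ± 0.06 for Picalm (adjusted p = 0.0185) was lost without replicate 3 of WT at 2 h, replicate 1 of TTP-KO at 2 h, replicate 3 of WT at 4 h or replicate 3 of TTP-KO at 4 h (0.28 to 0.29).

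Fn1, the fibronectin gene, changed order between the genotypes. It stood at 53.95, 45.2 and 52.2 CPM in WT and 40.04, 38.8 and 38.9 CPM in TTP-KO at 2 h. By 4 h it stood at 73.1, 67.6 and 76.6 CPM in WT and 93.9, 95.4 and 85.8 CPM in TTP-KO. TTP-KO was lower in all libraries at 2 h and higher in all at 4 h, a difference of 0.70 ± 0.11 (edgeR adjusted p = 0.00145). It was the only gene called among 38 adhesion, migration and matrix genes (2.63%, against 0.313% of all genes), whose median was 0.0369. Kctd12, which encodes an auxiliary subunit of GABA-B receptors, fell in both, from 1417, 1395 and 1381 to 629.9, 656 and 644 CPM in WT. In TTP-KO it fell from 1196, 1194 and 1145 to 681, 698 and 663 CPM, a difference of 0.33 ± 0.05 (adjusted p = 0.00145). Its genotype difference at 4 h, 0.08 ± 0.04, did not itself pass the test (adjusted p = 0.229). Sdc4, a heparan sulfate proteoglycan gene (0.31 ± 0.07, adjusted p = 0.0272), and Mmp19, a matrix metalloproteinase gene (0.58 ± 0.12, adjusted p = 0.0272), lost their calls without any 1 of 8 and of 7 libraries.

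The remaining genes with a higher change were enzymes and a translation factor. Glul, glutamine synthetase, rose in TTP-KO from 179 ± 12.5 to 237 ± 0.968 CPM and stood in WT at 181 ± 16.4 and 182 ± 11.2 CPM (mean ± SD, n = 3). Its difference was 0.39 ± 0.08 (edgeR adjusted p = 0.0218), and the call was lost without any 1 of 8 libraries. For Ptgr3, a prostaglandin reductase gene, a fall was called in WT alone, with a difference of 0.55 ± 0.11 (adjusted p = 0.0147) lost without replicate 2 of WT at 2 h, replicate 2 or 3 of WT at 4 h or replicate 3 of TTP-KO at 4 h (0.50 to 0.54). Tufm, the mitochondrial elongation factor Tu gene, had the largest higher change. At 2 h it stood at 18.8, 12.99 and 21.03 CPM in WT and 9.55, 9.50 and 7.93 CPM in TTP-KO. By 4 h the values were 18.4, 19.8 and 19.9 CPM and 22.1, 22.4 and 16.02 CPM. TTP-KO lay below WT at 2 h and overlapped it at 4 h. The difference of 1.02 ± 0.21 (adjusted p = 0.0218) was lost without any 1 of 8 libraries and with limma-voom.

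Coro2a and Snap23 act on the cytoskeleton and on membrane fusion. Coro2a, a coronin gene, rose in WT from 48.7, 44.7 and 47.05 to 66.9, 62.7 and 71.00 CPM. It stood in TTP-KO at 44.3, 45.9 and 44.5 CPM and then at 46.2, 40.4 and 38.7 CPM. TTP-KO lay below all WT libraries at 4 h, with a difference of -0.62 ± 0.11 (edgeR adjusted p = 0.00724). Snap23 encodes a SNARE of granule fusion. It alone was called of 32 granule and exocytosis genes (lower, 3.12% against 0.313% of all genes, list median -0.0978). It rose in WT from 142 ± 0.0292 to 193 ± 3.51 CPM and stood in TTP-KO at 138 ± 7.42 and 144 ± 9.22 CPM (mean ± SD, n = 3). Its difference was -0.38 ± 0.07 (adjusted p = 0.0104), lost without replicate 3 of TTP-KO at 2 h (-0.36). DESeq2 and limma-voom each called 2 genes of that list.

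The other 10 genes with a lower change are named here to account for all 44 (with Adora2b and Akr1c12 they make 12 chosen after their values were seen). Asb2, a ubiquitin ligase subunit gene, rose in WT from 90.3, 97.3 and 94.9 to 145, 159 and 203 CPM and stood in TTP-KO at 62.1, 69.8 and 62.5 and 75.2, 59.8 and 65.9 CPM. It lay below WT in all TTP-KO libraries at both times. The difference was -0.79 ± 0.14 (edgeR adjusted p = 0.0121), lost without replicate 3 of WT at 2 h, replicate 2 of TTP-KO at 2 h or replicate 3 of TTP-KO at 4 h (-0.78 to -0.72), without the controls and with limma-voom. Gm4633, a predicted gene (-0.43 ± 0.07), kept its call without each library. Glipr2 (-0.49 ± 0.09) lost it only without replicate 3 of WT at 4 h (-0.44). The low density lipoprotein receptor-related gene Lrp12 rose in both genotypes, less in TTP-KO (-0.69 ± 0.14), and Acod1, the enzyme that makes itaconate, fell in both, further in TTP-KO (-0.29 ± 0.06). These and Tes (-0.31 ± 0.06), Rnaseh2b (-0.86 ± 0.19), Metrnl (-0.38 ± 0.09), the cell cycle inhibitor gene Cdkn2b (-0.39 ± 0.09) and Apol7c (-0.65 ± 0.15) each lost the call without any 1 of 7 to 12 libraries. Metrnl, Cdkn2b and Apol7c lost it with RLE scaling too.

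**Figure D3:**
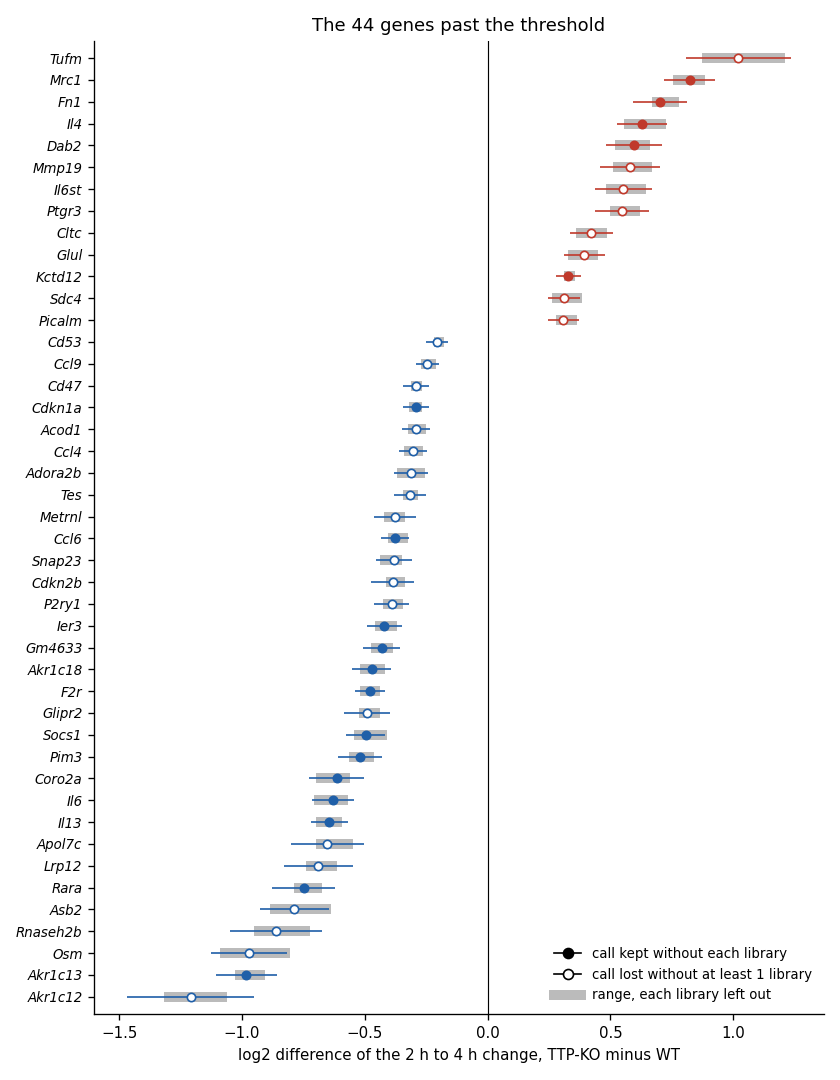
Difference of the 2 h to 4 h change (TTP-KO minus WT, log2) for each of the 44 genes, with its standard error (line) and the range over 12 fits that each leave out 1 library (grey band). Filled points, 18 of 44, kept the call in all 12 fits, open points lost it in at least 1, and no band reaches 0.

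Several lists of signalling genes and the interferon genes had no call in edgeR's test. Over all genes 0.313% were called, so 0 calls in a list of this size is near that share. Of all 14076 genes 1285 had an unadjusted p under 0.05. The lists of mRNA decay, interferon and lipid mediator genes below are to be read against the same shares. Of 32 genes of NF-kB subunits, feedback and targets, 0 were called by edgeR, 0 had an unadjusted p under 0.05 and 0 were called by DESeq2 or limma-voom, with a median of 0.0081. Bcl3 had the smallest p (0.28 ± 0.14, adjusted p = 0.555). Of 23 MAPK feedback regulators 0 were called by edgeR or DESeq2 and 1 without the filter (4 with an unadjusted p under 0.05, 3 of them lower). Gadd45b stood at 0.26 ± 0.08 (adjusted p = 0.264). Of 26 genes of calcium entry, calcineurin and NFAT 0 were called by edgeR or DESeq2, and 8 had an unadjusted p under 0.05, 7 of them higher, with the calcium channel gene Itpr2 at 0.35 ± 0.12 (adjusted p = 0.313). Of 39 genes of the IgE receptor and its proximal signalling 0 were called by edgeR and 1 by DESeq2. An unadjusted p under 0.05 was held by 10, 7 of them lower. The ubiquitin ligase gene Cbl had the smallest p there (0.36 ± 0.09, adjusted p = 0.109).

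Of 45 mRNA decay and RNA-binding regulators 0 were called by edgeR or DESeq2 (4 with an unadjusted p under 0.05). Exosc10, an exosome subunit gene, stood at -0.43 ± 0.14 (adjusted p = 0.284). The list of 46 interferon response genes had 0 calls by edgeR, 1 by DESeq2 and 2 without the filter, 10 higher and 2 lower at an unadjusted p under 0.05, and the highest median of the lists of functions, 0.1422. Rsad2, which encodes the antiviral enzyme viperin, stood at 82.7, 81.4 and 81.6 CPM in WT and 68.5, 63.1 and 64.9 CPM in TTP-KO at 2 h. At 4 h it stood at 70.6, 80.8 and 76.2 CPM and 76.9, 98.4 and 86.7 CPM. TTP-KO lay below WT at 2 h and overlapped it at 4 h, and the difference of 0.52 ± 0.12 missed the threshold (adjusted p = 0.0541). Of 29 lipid mediator and histamine genes 0 were called by edgeR and 1 by DESeq2 (4 with an unadjusted p under 0.05, median -0.0153).

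**Figure D4:**
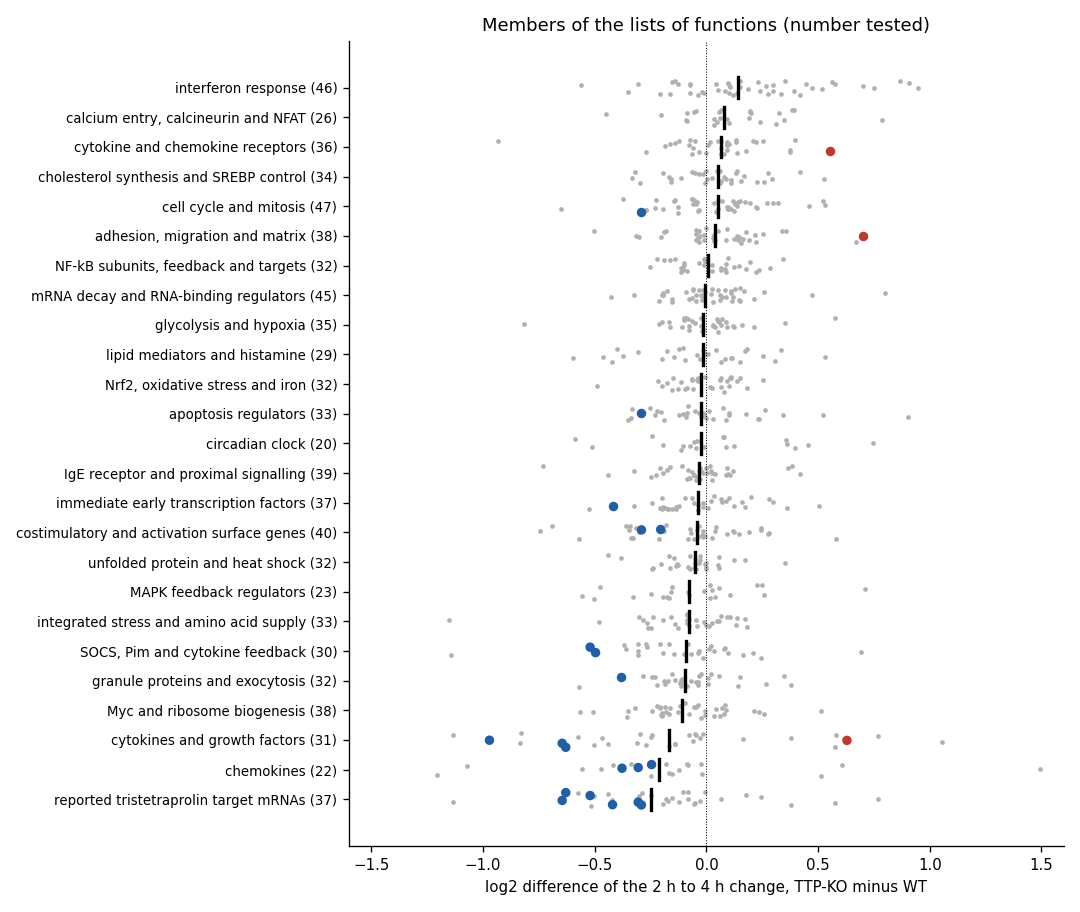
Difference of the 2 h to 4 h change (TTP-KO minus WT, log2) for each tested member of 25 lists of functions (points; coloured where called), with the list's median as a black bar and the number tested in brackets. The bars run from -0.2497 for the reported tristetraprolin targets to 0.1422 for the interferon response genes, against -0.00064 for all genes.

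The difference also moved with transcript length, taken from GENCODE M21. In 5 bins of 2336 genes each, from the shortest transcripts to the longest, the median difference was -0.0233, -0.0388, -0.0127, 0.0086 and 0.0741. Genes with a lower change numbered 12, 8, 7, 3 and 0 in these bins, and those with a higher change 1, 2, 2, 2 and 6. The genes with a higher change had a median transcript length of 4663 bases, those with a lower one 2070 bases and all tested genes 2938 bases. In WT the bin of longest transcripts had a median change of -0.0677, and in TTP-KO of 0.0109. The part of length in the calls was not tested.

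**Figure D5:**
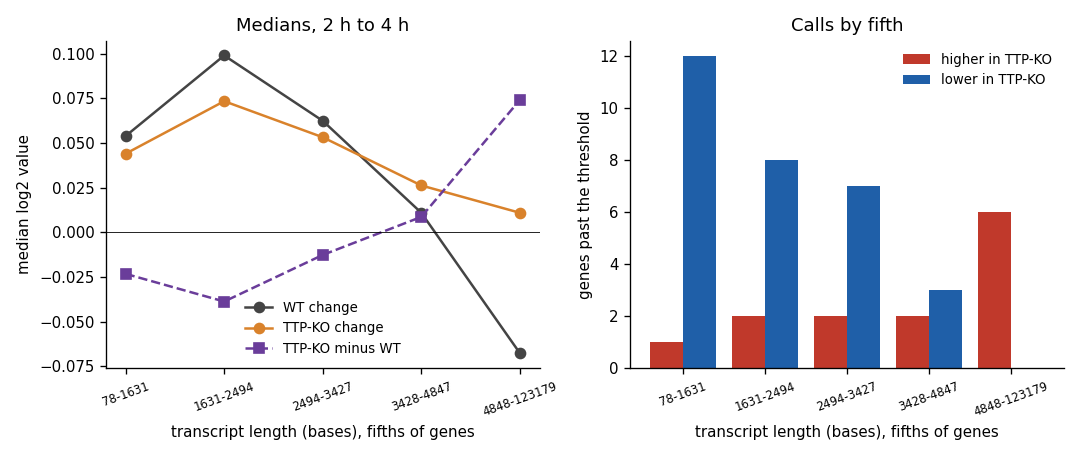
Left, median log2 change from 2 h to 4 h in WT and TTP-KO and the median of their difference in 5 equal bins of transcript length; right, the number of genes called in each direction in each bin. The bin of longest transcripts holds 6 genes with a higher and 0 with a lower change in TTP-KO, and the shortest 1 and 12.

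The precision of a single gene limits what 3 libraries a group can show. The standard error of the difference had a median of 0.212 over all tested genes and of 0.106 over those whose mean log2 CPM reached 5, and the least abundant gene called had a mean log2 CPM of 3.982. In simulated counts of the same design (13872 genes), edgeR recovered 39 of 100 genes whose change differed 1.5-fold and 75 of 100 that differed 2-fold, and called 7 others. Just inside the threshold were Cdkn2b, Metrnl and Apol7c, with adjusted p of 0.0464, 0.0464 and 0.0482. Just outside, at 0.0514, were the eosinophil attractant gene Ccl24 (-1.21), Il1a (-0.44) and a gene known by a clone name. The number of genes called was 25 without replicate 3 of TTP-KO at 2 h, 29 without replicate 2 of that group, 26 without replicate 3 of WT at 4 h and 29 without replicate 3 of TTP-KO at 4 h. Of the 44 genes 18 kept their call without each library (5 higher, 13 lower). Opposite-strand transcripts that overlap Zfp36, P2ry1, Tes, Cdkn1a, Mmp19 and Ccl6 were themselves abundant enough to be tested, and with the strand setting not stated in the sources used here, reads from the partners cannot be told apart. Picalm overlaps tested transcripts on its own strand (mean log2 CPM 0.4654 to 2.267), which no strand setting separates, and how reads were shared among them was not tested.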

How the data were processed

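Bulk polyA RNA of 18 basophil libraries was measured by sequencing. Values deposited by the authors are estimated counts per gene of the RSEM kind and not normalized, judged from their decimals and unequal library sums. Build GRCm39 and the tools STAR 2.7.10a, cutadapt 3.5, RSEM 1.3.1, R 4.4.0 and R 4.4.1 come from the submitters' processing notes, which give no roles. Neither the annotation release nor the strand setting is stated in the sources used here. Columns headed unstimulated were taken as control OVA. No library was a copy of another in its group (chi-square per degree of freedom 3.02 to 4.624 over 12 pairs).

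Rounded counts went into edgeR 4.0.16 (R 4.3.3): filterByExpr on the 6 groups (14076 genes, 99.79% of counts), TMM scaling and a robust quasi-likelihood fit with a mean per group over all 18 libraries (12 residual degrees of freedom, biological coefficient of variation 0.0905). A gene is said to be called at a Benjamini-Hochberg adjusted p under 0.05, taken over the 14076 genes. Standard errors are the log2 difference divided by the root of the F statistic. Exact permutation of 3 against 3 libraries cannot go below p = 0.1. Alternatives were RLE scaling, no filter, DESeq2 1.42.0, only the 12 TNP-OVA libraries, a replicate block, limma-voom (limma 3.58.1) and leaving out each of the 12 libraries. The edgeR, DESeq2 and limma-voom fits were tested on simulated data.

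Genes were named by a rule: Zfp36, Il4, Il13, Il6, Csf2, Il3 and Mrc1, the 15 smallest p in each direction among called genes at or above a mean log2 CPM of 2 and with a proper symbol, and per list up to 4 called members or else the smallest p. The comparison, the rule and the 37 gene lists (25 of functions, 12 of markers) were chosen with earlier results of these data known, and lists share genes. Ensembl IDs of 13798 tested genes matched GENCODE M21 (GRCm38), which gave the length and 3′ untranslated region of a single coding transcript per gene.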

Additional observations from a re-analysis of the deposited data

Results flagged for a closer look

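The 44 genes below had a change from 2 h to 4 h that differed between the genotypes by edgeR's test of the difference itself, which is what brought each of them here. Values are the log2 change in TTP-KO minus that in WT, with the genotypes in which the change itself was called. With 3 libraries in each group, single libraries standing apart were not looked for.

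Of the 13 genes with a higher change in TTP-KO, 6 were called in both genotypes with the same sign. The rise was larger in TTP-KO for Mrc1 (0.82), Fn1 (0.70), Dab2 (0.59) and Il6st (0.55), and the fall was smaller for Il4 (0.63) and Kctd12 (0.33). Mmp19 (0.58) fell in WT and rose in TTP-KO. A fall was called in WT alone for Ptgr3 (0.55), Cltc (0.42) and Picalm (0.31), and a rise in TTP-KO alone for Tufm (1.02), Glul (0.39) and Sdc4 (0.31).

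Of the 31 genes with a lower change, 14 fell in both genotypes and further in TTP-KO. They were Osm (-0.97), Apol7c (-0.65), Il13 (-0.65), Il6 (-0.63), Pim3 (-0.52), F2r (-0.48), Gm4633 (-0.43), Ier3 (-0.42), Ccl6 (-0.38), Tes (-0.31), Adora2b (-0.31), Ccl4 (-0.31), Acod1 (-0.29) and Cdkn1a (-0.29). Lrp12 (-0.69) rose in both, less in TTP-KO, and Glipr2 (-0.49) rose in WT and fell in TTP-KO. A rise was called in WT alone for Akr1c12 (-1.21), Akr1c13 (-0.98), Asb2 (-0.79), Coro2a (-0.62), Snap23 (-0.38) and Ccl9 (-0.25). A fall was called in TTP-KO alone for Rnaseh2b (-0.86), Rara (-0.75), Socs1 (-0.50), Akr1c18 (-0.47), P2ry1 (-0.39), Cdkn2b (-0.39), Metrnl (-0.38), Cd47 (-0.29) and Cd53 (-0.20).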

How the results depend on the processing

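None of the 44 called genes reversed direction in any of the 18 other fits that gave it a value. The number called was 40 with RLE scaling (13 higher, 27 lower), 56 with only the 12 TNP-OVA libraries (20 and 36) and 49 with limma-voom (15 and 34). It was 103 with DESeq2 (40 and 63, with 40 of the 44 among them and no adjusted p for Tufm, Rnaseh2b, Akr1c12 and Apol7c) and 134 without a filter on low counts (45 and 89, with 43 of the 44), and the cause was not tested. Leaving out each of the 12 libraries gave 25 to 53 genes for the difference of the changes, 3634 to 4377 for the WT change, 3615 to 4342 for the TTP-KO change, 228 to 371 for the genotype difference at 2 h (393 with all libraries) and 466 to 763 for that at 4 h (735 with all). At 2 h it was 228 without replicate 3 of WT and 259 without replicate 1 of TTP-KO, and at 4 h 466 without replicate 2 of WT and 484 without replicate 3 of TTP-KO. Of the 44 genes, 17 kept the call in all 18 fits. Counts of called list members moved by over 1.5 times in 63 of 666 comparisons. Replicate numbers did not pair the libraries (correlation of deviations -0.103 to 0.0893 over 18 same-numbered pairs, and 2 of 12 libraries matched their own number best). With a replicate block 43 genes were called (15 higher, 28 lower), 39 of them among the 44, and the call was lost for Adora2b, Akr1c12, Apol7c, Cdkn2b and Metrnl. Genes of low count, such as Csf2 and Il3, had wide standard errors, and the part of depth in calls that were missed was not tested.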

Other observations

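Genes of metabolism and stress had 0 calls in edgeR's test of the difference, against 0.313% of all genes, list by list. Of 35 glycolysis and hypoxia genes 2 had an unadjusted p under 0.05 and DESeq2 called 0, with Vegfa at 0.57 ± 0.21. Of 34 cholesterol synthesis genes 4 had an unadjusted p under 0.05 and DESeq2 called 1. This was Abca1, the cholesterol exporter gene, which stood in WT at 63.2, 70.8 and 64.2 CPM at 2 h and 48.9, 53.2 and 54.6 CPM at 4 h, and in TTP-KO at 67.8, 71.1 and 63.2 and 71.2, 71.9 and 70.9 CPM (0.42 ± 0.10, edgeR adjusted p = 0.0881). The genotypes overlapped at 2 h and were apart at 4 h. Of 33 integrated stress genes 3 had an unadjusted p under 0.05, all lower, and DESeq2 called 1. Sesn2, a stress-induced inhibitor of mTORC1, stood at 50.98, 52.1 and 55.1 CPM in WT and 50.3, 46.98 and 45.1 CPM in TTP-KO at 2 h, and at 58.1, 61.5 and 62.9 and 36.7, 37.5 and 43.3 CPM at 4 h (-0.48 ± 0.12, adjusted p = 0.0881). The counts at an unadjusted p under 0.05, against 1285 of 14076 over all genes, were 7 of 32 for unfolded protein and heat shock genes (Hspa8 at -0.20 ± 0.06), 5 of 32 for Nrf2 and iron genes (Gsr at -0.18 ± 0.06), 2 of 38 for Myc and ribosome biogenesis genes (Ltv1 at -0.56 ± 0.21) and 4 of 20 for clock genes (Per1 at 0.36 ± 0.13), with 0 called by DESeq2 in each.

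Markers of other cells that a CD49b-enriched culture could hold had 0 calls apart from Mrc1, against 0.313% of all genes called. The 20 neutrophil and precursor markers summed to 2386 to 2729.7 CPM in WT and 3515.8 to 3837.5 CPM in TTP-KO at 2 h, and to 2201.9 to 2336.9 and 3126.1 to 3505.4 CPM at 4 h. Their median difference of the changes was 0.0760, with Cxcr2 at -0.27 ± 0.06 (edgeR adjusted p = 0.0608). Counts at an unadjusted p under 0.05 follow, against 1285 of 14076 over all genes. The count was 7 of 15 for basophil markers (1 higher, 6 lower, Fcer1a at -0.20 ± 0.06) and 1 of 8 for mast cell markers (Tpsb2 at -0.28 ± 0.08). It was 3 of 10 for dendritic cell and class II markers (Cd74 at -0.18 ± 0.05), which summed to 3842.4 to 4151.3 CPM in WT and 2741.5 to 2900.1 CPM in TTP-KO at 2 h and to 4192.4 to 4342.9 and 2670.7 to 2822.8 CPM at 4 h. The part of these cells in the lower changes was not tested. The count was 2 of 12 for B cell markers (Blnk at -0.47 ± 0.14) and 1 of 7 for erythroid markers (Hba-a2 at 0.68 ± 0.29, uncertain because it shares reads with Hba-a1). It was 1 of 9 for platelet markers (Itga2b at 0.16 ± 0.05) and 2 of 9 for progenitor markers (Meis1 at 0.59 ± 0.23). For the 5 NK and innate lymphoid (Rora at 0.36 ± 0.19), 2 T cell (Lck at -0.58 ± 0.58) and 8 eosinophil markers (Epx at -1.46 ± 0.72) it was 0. The gene in brackets had the smallest p of its list, and Hba-a2, Itga2b, Meis1 and Rora went against most members of theirs. The median difference was -0.2882 for erythroid (6 of 7 negative) and -0.0817 for platelet markers (6 of 9 negative). It was -0.146 for progenitor (6 of 9 negative) and -0.1293 for NK and innate lymphoid markers (4 of 5 negative). DESeq2 called 1 neutrophil and 1 class II marker and 0 of the others.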
